A study of Mus musculus with 4 samples.

Results

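The 10 genes described here, Trem2, Apoe, Spp1, Gpnmb, Fabp5, Lpl, Lgals3, Cd9, Nr1h3 and Abca1, are those by which lipid-associated macrophages are usually recognised, and they were taken as a list of symbols from the 34097 genes counted in each library. All 10 were found by symbol. Single-cell RNA was sequenced from transplanted mouse hearts taken on day 5 after grafting, in 3 libraries of allogeneic grafts (replicates 1, 2 and 3), where donor and recipient differ genetically, and 1 library of an isogeneic graft, where they do not. The labels of both groups give transplanted heart as the tissue and name no strain, age, sex, cell sort or other treatment, and with 1 isograft its own spread is unknown. The labels do not tell if each library came from its own animal, so each p-value reflects just how far these libraries varied, which could be a technical spread.

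As background, lipid-associated macrophages are phagocytes that take up and break down lipid-rich debris, and they have been described in obese adipose tissue, atherosclerotic plaques and injured hearts. TREM2, a surface receptor for lipids and lipoproteins, signals through the adaptor TYROBP and is needed for this state in several tissues. LXR alpha, the product of Nr1h3, is a nuclear receptor activated by oxidised cholesterol, and Apoe, Abca1 and Lpl are among its known targets. Osteopontin (Spp1) and galectin-3 (Lgals3) are secreted proteins of tissue repair and fibrosis that the same cells often make.

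Trem2 and Spp1 were lower in allogeneic than in isogeneic cells in all 3 comparisons of the graft types below. The stretch of each promoter that held a match to a searched motif is therefore shown. The sequences are RefSeq's for GRCm38.p6, from windows that run from 250 bases before to 50 after a start site, and they read 5′ to 3′ on the plus strand. Capitals mark a match to a loose AP-1 pattern (TGANTCA, N being any base) in Trem2, at chr17:48346341-48346400. They also mark the PU.1 core (GGAAGT) in Spp1, at chr5:104434981-104435040.
Trem2: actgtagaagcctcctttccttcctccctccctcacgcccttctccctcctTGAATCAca
Spp1: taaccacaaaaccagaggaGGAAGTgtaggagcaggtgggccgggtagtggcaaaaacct
The Trem2 match began 9 bases before the start site and the Spp1 match 111 bases before it. Of 32851 promoters of the same length, 7.81% held the loose AP-1 pattern and 23.8% the PU.1 core on either strand. Gpnmb also held a match to the AP-1 pattern (TGACTCA), with C in the middle where Trem2 had A. Abca1 held the E-box of MITF and TFEB (CACGTG), found in 7.15% of promoters. Promoters of 8 of the 10 genes were given (12 windows), all but Fabp5 and Lpl, and none of the 12 held 2 AGGTCA half-sites of LXR 4 bases apart in direct repeat, which 5 of the 32851 promoters did. These matches describe the letters of the windows and say nothing of binding.

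All 10 are protein-coding genes of mm10 in the GENCODE M21 annotation. Trem2 lies at chr17:48346401-48354147 and Spp1 at chr5:104435118-104441050, both on the plus strand, while Apoe lies at chr7:19696109-19699188 and Nr1h3 at chr2:91184061-91202834 on the minus strand. Exons of Spp1 and Nr1h3 are overlapped on the same strand by Gm42793 and Gm13783, and those of Cd9 on the opposite strand by Gm26728. Whether the counting used strand is not given, and how reads of these pairs were assigned was not examined.

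Libraries held 51054446, 63434265 and 51463909 UMIs (unique molecular identifiers, 1 for each captured transcript) in allogeneic replicates 1, 2 and 3 and 100038951 in the isogeneic one, and 4983, 8215 and 6311 allogeneic cells and 11386 isogeneic cells passed the limits on quality. Cells were gated one by one on marker genes, none of them among the 10: a mononuclear phagocyte had at least 4 of 7 phagocyte markers and was then called macrophage or monocyte by which of 2 lists of 6 markers it held more of. Macrophages numbered 970, 1252 and 287 in the allografts and 1757 in the isograft, monocytes 399, 806 and 455 against 147, and phagocytes that were neither 360, 577 and 118 against 220. "Like" is understood after each name. Of the macrophages, 364, 456 and 77 in the allografts and 38 in the isograft were only 1 marker ahead on the macrophage side, and the median macrophage held 33.3% of the monocyte markers in each allogeneic library and none in the isograft. By these counts the border between both classes was less sharp in the allografts. Counts of markers per cell also rise with depth, and the part of depth in this was not tested. Median depth was 12728, 9437 and 9809 UMIs per allogeneic macrophage and 5473 per isogeneic one. Barcodes found in more than 1 library numbered 37, 50 and 55 in the allografts and 68 in the isograft.

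Allogeneic macrophages carried less Trem2, Spp1 and Lpl and more Nr1h3 than isogeneic macrophages, while Apoe, Gpnmb, Fabp5, Lgals3, Cd9 and Abca1 did not pass the test. Counts were summed over the macrophages of a library and are given as CPM, a gene's counts scaled to 1e6 UMIs of the class in that library. The groups were compared by edgeR's quasi-likelihood F-test with Benjamini-Hochberg adjustment over all genes and a threshold of 0.05. Of 14628 genes tested, 6.15% were called, 3.9% as higher and 2.24% as lower in allogeneic cells. Against that background 1 of the 10 was called higher and 3 lower, with a median log2 change of -1.26 over the 10 and -0.0056 over all genes. The 10 were chosen with earlier results of these data known, so such counts, here and below, describe the list and do not test it. All 10 passed the filter on low counts in this fit and in the others.

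The receptor gene Trem2 stood at 298, 250.4 and 390.0 CPM in allogeneic macrophages, against 1539 CPM in isogeneic ones. Every allogeneic library lay below the isograft, whose level was 3.95 to 6.15 times theirs. The log2 change was -2.28 (SE 0.27, adjusted p = 0.0182 by edgeR). Tyrobp, the adaptor through which TREM2 signals, had 2015, 2321 and 2188 CPM in allogeneic and 2644 CPM in isogeneic macrophages and did not pass the test (log2 change -0.26, adjusted p = 0.450 by edgeR).

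Of the genes for secreted proteins, Spp1 had 269, 301 and 664 CPM in allogeneic macrophages and 5500.4 CPM in isogeneic ones. The groups lay far apart, the isograft being 8.28 to 20.4 times as high, and Spp1 fell by 3.71 on the log2 scale (SE 0.50, adjusted p = 0.0233 by edgeR). Apoe, the main apolipoprotein of macrophages, had 716, 1228 and 5932 CPM in allogeneic cells and 12346 CPM in isogeneic cells. All allogeneic values lay below the isograft, but replicate 3 was far above the other two, and the log2 change of -2.20 had an SE of 1.05 (adjusted p = 0.249 by edgeR). Lgals3 had 2324, 2465 and 2040.2 CPM in allogeneic and 2820.0 CPM in isogeneic macrophages, a log2 change of -0.29 that did not pass the test (adjusted p = 0.410 by edgeR).

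Among the genes that handle fatty acids, Lpl, which encodes the lipase that frees them from lipoproteins, had 20.9, 20.7 and 30.7 CPM in allogeneic and 64.2 CPM in isogeneic macrophages. Its change was smaller than those of Trem2 and Spp1 and just past the threshold, with a log2 change of -1.42 (SE 0.26, adjusted p = 0.0442 by edgeR). Fabp5, a carrier of fatty acids inside the cell, had 1769, 1766 and 1374 CPM in allogeneic and 2318 CPM in isogeneic macrophages. All 3 allogeneic values lay below the isogeneic one, but the log2 change of -0.48 (SE 0.22) did not pass the test (adjusted p = 0.235 by edgeR).

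Of the membrane proteins, Gpnmb, a glycoprotein of lysosomes and the cell surface, had 103, 72.5 and 46.5 CPM in allogeneic and 163 CPM in isogeneic macrophages (log2 change -1.11, SE 0.39, adjusted p = 0.147 by edgeR). The tetraspanin gene Cd9 had 67.2, 59.3 and 141 CPM in allogeneic and 312 CPM in isogeneic macrophages (log2 change -1.80, SE 0.48, adjusted p = 0.0898 by edgeR). In both genes all 3 allogeneic values were below the isogeneic one, and replicate 3 was the lowest allograft for Gpnmb and the highest for Cd9.

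The sterol sensor Nr1h3 went the other way. It had 178, 181 and 71.5 CPM in allogeneic macrophages and 12.9 CPM in isogeneic ones, where the whole class gave 150 UMIs. Each allograft lay above the isograft, by 5.52 to 14.0 times, and Nr1h3 rose by 3.50 on the log2 scale (SE 0.66, adjusted p = 0.0450 by edgeR). Abca1, which exports cholesterol from the cell and is a known LXR target, had 131, 135 and 91.7 CPM in allogeneic macrophages and 139 CPM in isogeneic ones. Its log2 change was -0.19 (SE 0.26, adjusted p = 0.689 by edgeR).

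**Figure D1:**
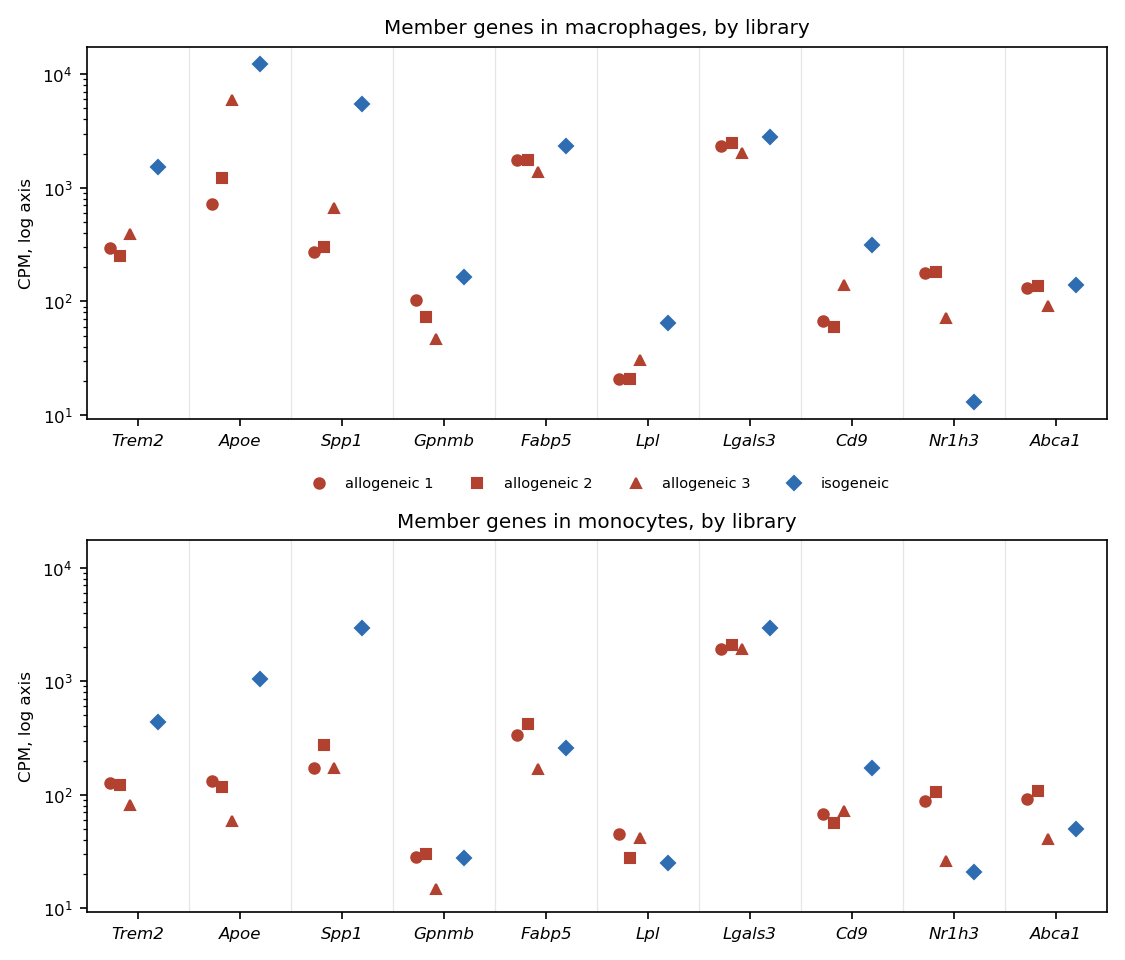
CPM of the 10 genes in macrophages (upper panel) and monocytes (lower panel), 1 point for each library, on a log axis. Red points are the 3 allogeneic libraries and blue diamonds the isogeneic one; in macrophages Spp1 lay at 269 to 664 CPM in the allografts and at 5500.4 CPM in the isograft, and Nr1h3 at 71.5 to 181 CPM against 12.9 CPM.

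Allogeneic replicate 3 stood apart from the other allografts in several of these genes, with more Apoe, Spp1 and Cd9 and less Nr1h3 and Gpnmb. Without it, 8 of the 10 were called in macrophages, among them Apoe (log2 change -3.64), Cd9 (-2.29), Gpnmb (-0.88) and Fabp5 (-0.37), beside 7073 genes in all. That fit has 1 residual degree of freedom, as has any without 1 allograft, and it borrows the spread far more strongly across genes (prior degrees of freedom 21.3, against 3.46 with all libraries), so its extra calls rest mostly on the pooled spread and are not read as firmer evidence. The same reading applies to the fits without replicate 3 in the comparisons below. Without replicate 1 the calls of Trem2 (adjusted p = 0.0555), Lpl (0.138) and Nr1h3 (0.0761) were lost by edgeR, and 181 genes were called. Without replicate 2 that of Lpl was lost (adjusted p = 0.0904 by edgeR), with 415 genes called. The call of Lpl was also lost with marker shares 0.3 apart (adjusted p = 0.0553) and with classes from clusters (0.0540), and that of Nr1h3 with Scrublet doublets removed (0.0502, all by edgeR). Spp1 was called in each of these fits.

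Other cells' markers moved with the groups. In macrophages the 6 T cell markers summed to 92.2, 78.3 and 11.1 CPM in the allografts (all 6 above 0 in each) and 1.7 CPM in the isograft (5 of 6 above 0). The 6 fibroblast markers, all above 0 in every library, summed to 16.1, 27.4 and 147 CPM against 224 CPM, and the 6 monocyte markers, also all above 0, to 832, 735 and 758 CPM against 162 CPM. Fibroblasts of the isograft held 2879.7 CPM of Apoe and 1271 CPM of Spp1, below the level of macrophages. The part of these RNAs in the changes was not tested.

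Monocytes shared the decrease of Trem2 and Spp1, and there Apoe and Cd9 fell as well. Of 12107 genes tested 2.07% were called, 1.31% as higher and 0.76% as lower, against 4 of the 10 genes, all of them lower in allogeneic cells. The median log2 change was -0.48 over the 10 and 0.076 over all genes. Trem2 had 128, 121 and 81.0 CPM in allogeneic monocytes and 433 CPM in isogeneic ones (log2 change -2.10, SE 0.28, adjusted p = 0.0236 by edgeR). Spp1 had 172, 274 and 172 CPM against 2952 CPM, and fell by 3.96 on the log2 scale (SE 0.31, adjusted p = 0.00491 by edgeR). Both genes left a wide gap between the groups.

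Apoe, which had varied most among allogeneic macrophages, had 132, 116 and 58.7 CPM in allogeneic and 1053 CPM in isogeneic monocytes (log2 change -3.48, SE 0.40, adjusted p = 0.0145 by edgeR). Cd9 had 67.6, 56.4 and 71.6 CPM in allogeneic and 173 CPM in isogeneic monocytes (log2 change -1.53, SE 0.22, adjusted p = 0.0276 by edgeR), a call lost without replicate 2 (adjusted p = 0.0515), with marker shares 0.3 apart (0.0527) and after thinning (0.0676). For comparison with the Apoe values of monocytes, neutrophils held 215, 114 and 92.4 CPM of Apoe in the allografts and 1080 CPM in the isograft. The part of free RNA in the Apoe values of either class was not tested. In monocytes the remaining 6 genes did not pass the test. Lgals3 had 1939, 2087 and 1939.6 CPM against 2919 CPM, and Nr1h3 88.5, 107 and 25.9 CPM against 20.8 CPM, where the isograft value rests on 15 UMIs. Gpnmb, Fabp5 and Abca1 overlapped between the groups. Lpl lay at 45.0, 27.8 and 41.4 CPM in allogeneic and 24.9 CPM in isogeneic monocytes, where the isograft value rests on 18 UMIs. Without replicate 3, Lgals3 (log2 change -0.67), Nr1h3 (2.10) and Abca1 (0.87) were called too, with 2361 genes in all.

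**Figure D2:**
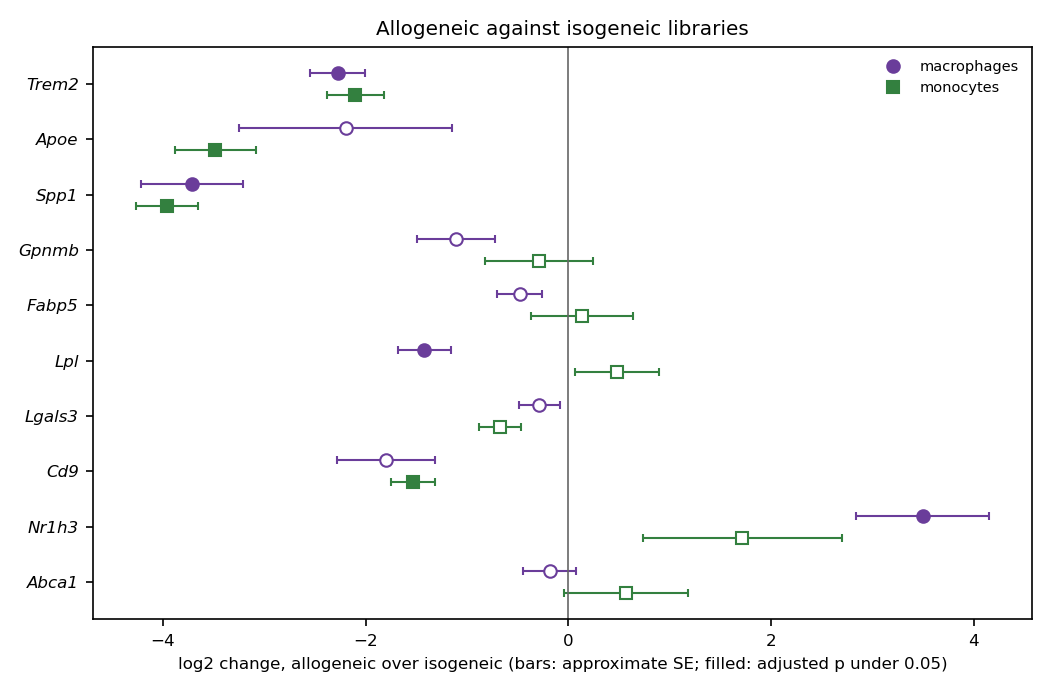
Log2 change of each gene, allogeneic over isogeneic, in macrophages (circles) and monocytes (squares), with approximate SE as bars and filled symbols for an adjusted p under 0.05. Trem2 and Spp1 were called lower in both classes, at -2.28 and -3.71 in macrophages and -2.10 and -3.96 in monocytes.

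Summing all gated phagocytes, the class that does not depend on the border between macrophages and monocytes, gave the same direction for Trem2, Spp1 and Cd9. Trem2 averaged 211 ± 25.1 CPM in allografts (SD, n = 3) and 1426 CPM in the isograft, with a log2 change of -2.77 (adjusted p = 0.00738 by edgeR). Spp1 averaged 300.3 ± 69.1 CPM in allografts (SD, n = 3) and 5421 CPM in the isograft, and Cd9 76.8 ± 24.8 CPM and 306 CPM, with log2 changes of -4.20 and -2.02 (adjusted p = 0.00664 and 0.0265 by edgeR). Here 9.48% of 15565 genes were called, 5.3% as higher and 4.18% as lower, and these 3 were the members called. Nr1h3 had a log2 change of 3.11 but did not pass (adjusted p = 0.0847 by edgeR), nor did Apoe at -3.25 (adjusted p = 0.0649 by edgeR). Leaving out replicate 1 called Apoe (-2.88) and Gpnmb (-2.02) besides, with 714 genes in all, leaving out replicate 2 gave 615 genes, and leaving out replicate 3 called 9 members and 7805 genes. Macrophages made up most gated phagocytes of the isograft and a smaller part of those of the allografts, so these values also carry the mix of classes.

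Within the allografts, macrophages held more of most of these genes than monocytes of the same library. With the library as a block, 20.7% of 11695 genes were called, 9.84% as higher and 10.9% as lower in macrophages, and of the 10 genes 7 were called higher and 1 lower. The median log2 change was 1.02 over the 10 and 0.0057 over all genes. Apoe in macrophages was 5.41, 10.6 and 101 times its level in monocytes in replicates 1, 2 and 3 (log2 change 4.08, adjusted p = 0.00855 by edgeR). Fabp5 was 5.25, 4.25 and 8.24 times as high in macrophages (log2 change 2.57, adjusted p = 0.000240 by edgeR). Every ratio of both genes was well above 1, and that of Apoe spread most.

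Gpnmb (log2 change 1.64), Trem2 (1.56), Nr1h3 (1.08), Abca1 (0.69) and Lgals3 (0.26) rose in macrophages as well, with adjusted p between 0.000377 and 0.0163 by edgeR. Trem2 was 2.33, 2.08 and 4.82 times and Nr1h3 2.01, 1.70 and 2.76 times its monocyte level. Lpl was the exception, at 0.464, 0.743 and 0.740 times its monocyte level (log2 change -0.62, adjusted p = 0.0266 by edgeR). Spp1, at 1.56, 1.10 and 3.86 times, did not pass (adjusted p = 0.0558 by edgeR), nor did Cd9, at 0.995, 1.05 and 1.96 times (adjusted p = 0.170 by edgeR). Without replicate 1 the calls of Lpl and Lgals3 were lost (adjusted p = 0.179 and 0.116), as they were without replicate 2 (0.0544 and 0.150), and Spp1 was called without any one of the 3 libraries. Lgals3 also lost its call with DESeq2 (adjusted p = 0.0642) and after thinning (0.697), and Lpl with marker shares 0.3 apart (0.0843) and after thinning (0.295). Without replicate 3 the change of Apoe was 2.96. When classes came from clusters in place of gates, Gpnmb (0.48), Lpl (-0.39), Lgals3 (0.0029) and Abca1, which turned sign (-0.38, adjusted p = 0.228 by edgeR), were no longer called, and the change of Apoe was 2.15, of Fabp5 1.49 and of Nr1h3 0.67.

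**Figure D3:**
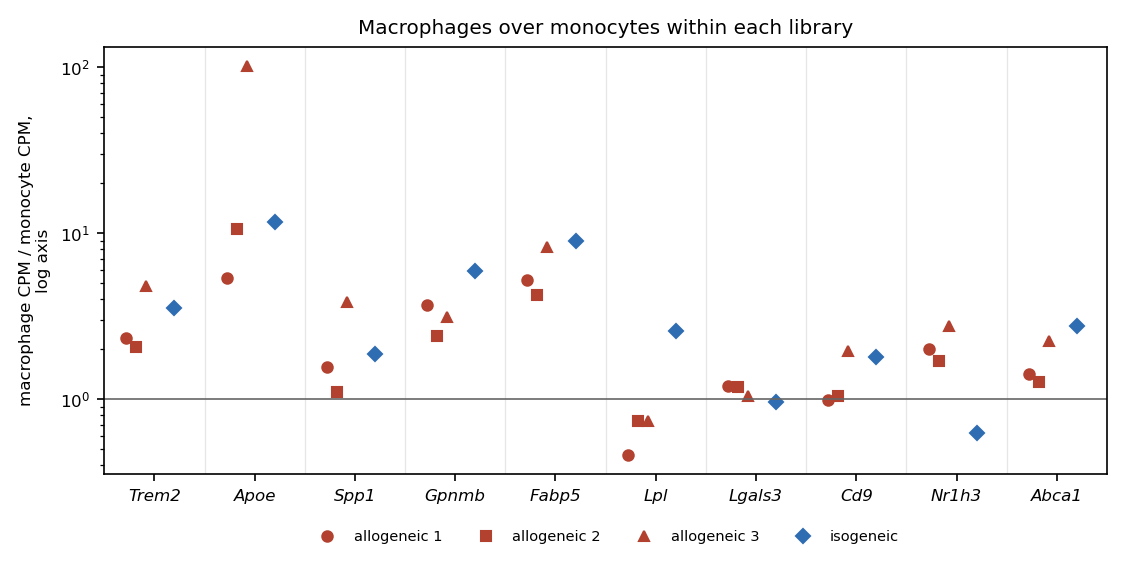
Macrophage CPM over monocyte CPM of the same library for each gene, on a log axis, with a line at 1. Red points are the allografts and the blue diamond the isograft; Lpl lay at 0.464 to 0.743 in the allografts and at 2.58 in the isograft, and Nr1h3 at 1.70 to 2.76 against 0.623.

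Whether the effect of the graft type differed between both classes was tested directly, as the change in macrophages minus the change in monocytes. Only Lpl passed (-1.97 on the log2 scale, SE 0.42, adjusted p = 0.0481 by edgeR), and 2.15% of 13785 genes were called, 1.81% with a positive and 0.348% with a negative difference. Lpl was below its monocyte level in the macrophages of all 3 allografts and above it in the isograft, at 2.58 times. The difference for Nr1h3 was 1.78 (adjusted p = 0.133) and for Trem2 -0.25 (adjusted p = 0.815, both by edgeR). Here too, fits without 1 allograft borrow the spread more strongly across genes, so their extra calls are not read as firmer evidence. The call of Lpl rests on 18 UMIs in isogeneic monocytes and was lost in 7 of 15 alternatives. Without replicate 1, Nr1h3 was called with it (1.83, adjusted p = 0.0441 by edgeR), without replicate 2 a total of 161 genes were called, and without replicate 3 all 10 genes and 1520 in total were called, with prior degrees of freedom of 64.8 in place of 7.31.

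Single macrophages were compared after thinning each to 2000 UMIs, which left out 18, 42 and 2 shallower allogeneic and 74 isogeneic macrophages. Trem2 was seen in 38.6%, 32.1% and 42.8% of allogeneic macrophages and in 88.9% of isogeneic ones (95% Wilson interval 87.4 to 90.4%), and unthinned in 76.8%, 67.0% and 69.3% against 96.9%. Spp1 was seen in 15.5%, 16.0% and 31.9% against 77.3%, and unthinned in 32.5%, 32.3% and 50.9% against 84.0%. At this depth both genes were seen in most isogeneic macrophages. Intervals cover counting error only.

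T cells, which should lack Trem2 and Nr1h3, were used as a guide to RNA from other cells, whether free or from doublets. Classes differed in this: isogeneic neutrophils held 92.8 CPM of Trem2 and isogeneic T cells 0 CPM. Trem2 was seen in 3.66%, 3.69% and 1.42% of thinned allogeneic T cells and in 0 of 11 isogeneic ones, which allows a share of up to 27.3%. Nr1h3 was seen in 28.8%, 29.1% and 9.82% of allogeneic macrophages and 2.38% of isogeneic ones (unthinned 77.1%, 69.0% and 37.6% against 7.5%), and in 2.33%, 2.30% and 0.283% of allogeneic T cells. Within the isograft, Nr1h3 was seen in 3.07% of thinned fibroblasts and 1.97% of endothelial cells (median depths 9269 and 3664 UMIs), close to the share in its macrophages. Whether the 150 Nr1h3 UMIs of isogeneic macrophages, or those of allogeneic macrophages, include free RNA was not tested. Median depths before thinning were 10890, 7445 and 5439 UMIs in allogeneic and 1647 UMIs in isogeneic T cells. Spp1 was seen in 9.20%, 7.32% and 3.12% of allogeneic T cells (unthinned 27.9%, 20.3% and 11.9%) and 1 of 11 isogeneic ones. The part of free RNA in the shares of allogeneic macrophages was not tested. Apoe was seen in 29.1%, 30.9% and 70.2% of allogeneic and 75.3% of isogeneic macrophages (unthinned 51.5%, 53.4% and 79.1% against 87.8%). It was also seen in 7.98%, 12.1% and 11.3% of allogeneic T cells and in 4 of 11 isogeneic ones. Fabp5 was seen in 60.4%, 57.4% and 43.5% of allogeneic and 49.7% of isogeneic macrophages (unthinned 85.9%, 81.7% and 67.9% against 61.1%), the opposite order to its CPM in replicates 1 and 2. Lgals3 was seen in 93.9%, 94.1% and 86.3% of allogeneic and 83.5% of isogeneic macrophages (unthinned 99.3%, 98.8% and 96.2% against 91.5%), the opposite order to its CPM in all 3, and no order is read from either.

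**Figure D4:**
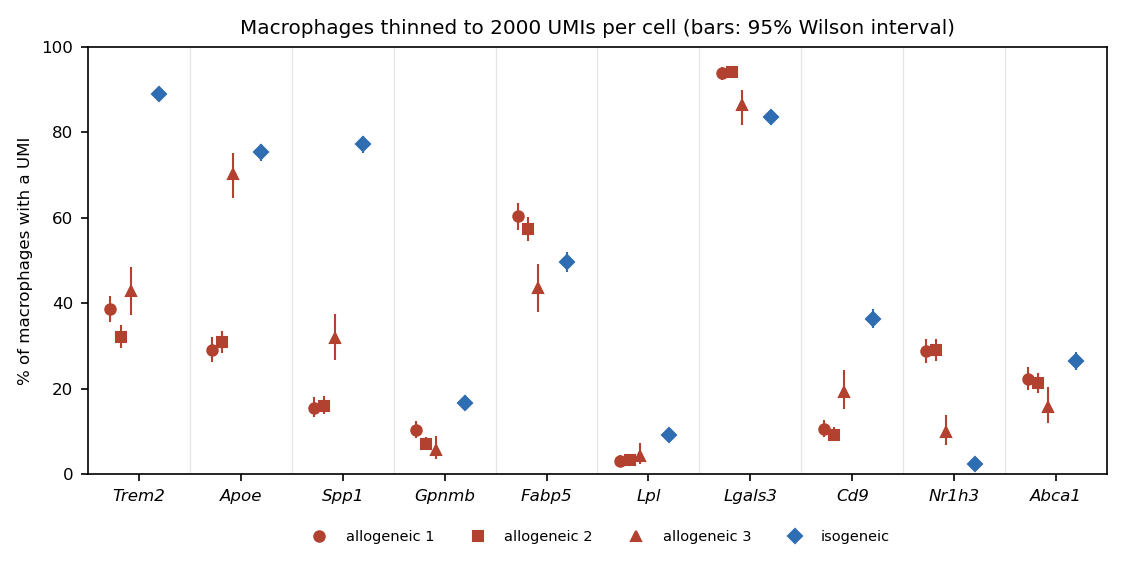
Percent of macrophages with at least 1 UMI of each gene after thinning to 2000 UMIs per cell, 1 point per library with its 95% Wilson interval. Isogeneic macrophages (blue) were at 88.9% for Trem2 and 77.3% for Spp1, and the allogeneic libraries (red) at 32.1 to 42.8% and 15.5 to 31.9%.

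Several of the genes were seen in the same cell. The median thinned macrophage held 3 of the 10 genes in each allograft and 5 in the isograft, and 14.9%, 15.0% and 21.8% of allogeneic against 53.0% of isogeneic macrophages held at least 5. Trem2 and Spp1 were seen together in 7.14%, 6.61% and 18.2% of allogeneic and 68.5% of isogeneic macrophages. Each was seen in most isogeneic macrophages, so the share with both does not show that they went together. Their r across thinned macrophages was 0.089, 0.114 and 0.299 in the allografts and 0.055 in the isograft. Spp1 and Gpnmb were seen together in 3.68%, 2.07% and 3.16% of allogeneic and 15.5% of isogeneic macrophages. Gpnmb alone was seen in 10.3%, 7.11% and 5.61% of allogeneic and 16.7% of isogeneic macrophages. A share with both depends on how often each gene was seen, so the higher isogeneic share does not show a closer link there. The r of this pair was 0.208, 0.131 and 0.124 in the allografts and 0.206 in the isograft. In monocytes, Trem2 and Spp1 met in 3.01%, 2.87% and 3.32% of allogeneic and 30.3% of isogeneic cells. No test was made over cells, and with 1 isograft these shares are a description.

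How the UMIs were spread over cells differed between genes. In the isograft the median thinned macrophage held 3 Trem2 UMIs, 3 Spp1 UMIs and 10 Apoe UMIs, and the top 10% of cells held 25.7% of the Trem2 UMIs, 47.5% of the Spp1 UMIs and 41.4% of the Apoe UMIs. In the allografts the median macrophage held none of Trem2 or Spp1, and the top 10% held 43.9%, 51.8% and 54.6% of the Trem2 UMIs and 85.2%, 86.6% and 77.6% of the Spp1 UMIs. Mean UMIs per cell were 0.55, 0.47 and 0.84 for Trem2 in the allografts and 3.26 in the isograft. For Spp1 they were 0.37, 0.45 and 1.47 against 8.96. Counting alone raises the top share at low means, so evenness is not compared between the groups. Within the isograft, Trem2 was spread the most evenly of Trem2, Spp1 and Apoe.

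Correlations across thinned macrophages within a library are given as descriptions, since its cells share 1 library and its depth. Gpnmb and Fabp5 went together in each (r = 0.35, 0.30 and 0.32 in the allografts and 0.49 in the isograft), as did Fabp5 and Lgals3 (0.25, 0.26 and 0.41, and 0.52 in the isograft). Apoe and Spp1 did not: r was 0.04, 0.13 and -0.011 in the allografts and -0.29 in the isograft, where both genes were at their highest. Among 1928 genes compared, with the 10 members and the gate markers left out, those most like Trem2 by mean r over the 4 libraries were Ctsb (0.26), Ctsd, Ftl1, Ctsl and Timp2 (0.22). For Spp1 they were Ctsl (0.28), Lgals1, Ctsb, Ctsd and Cd63 (0.18), and for Gpnmb Ctsd (0.22), Ctss, Ctsb, Psap and Ftl1 (0.21).

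Across the other classes, each gene had its own range. Trem2 and Gpnmb were highest in the macrophages of every library, with 14.3 CPM of Trem2 at most in allogeneic and 46.3 CPM in isogeneic endothelial cells. Cd9 was highest in neutrophils, at 1029.6 to 1151 CPM in the allografts and 1168 CPM in the isograft, far above macrophages. Fabp5 reached 781, 486 and 472 CPM in allogeneic and 1938 CPM in isogeneic endothelial cells. Lpl was higher in fibroblasts (68.9, 50.9 and 83.9 CPM in the allografts and 156 CPM in the isograft) and in endothelial cells (121, 103 and 99.6 CPM against 73.4 CPM) than in macrophages of the same library. Apoe and Spp1 were also found in fibroblasts, at 217, 951 and 1315 CPM and 147, 276 and 654 CPM in the allografts against 2879.7 and 1271 CPM in the isograft. Fibroblast numbers differed widely, at 53, 124 and 2066 cells in the allografts and 5299 in the isograft.

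**Figure D5:**
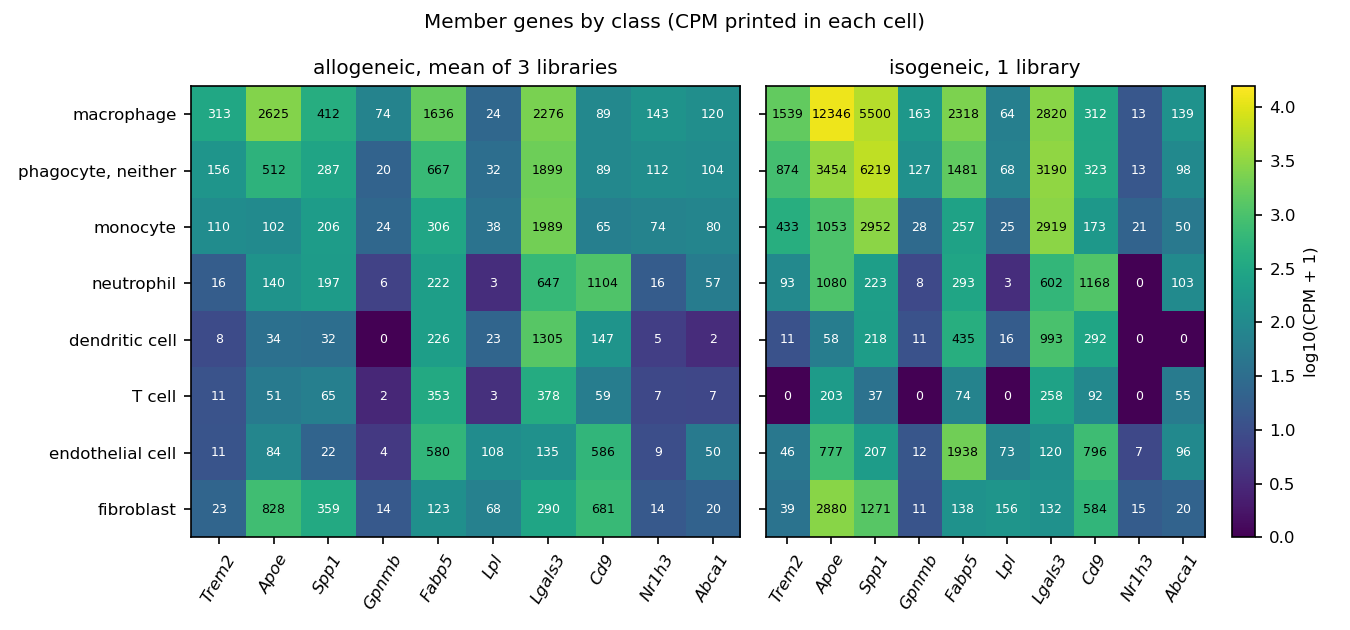
Level of each gene by class, with the CPM written in each field: the mean of the 3 allogeneic libraries on the left and the isogeneic library on the right, on a log10(CPM + 1) colour scale. Within a column, Trem2 and Gpnmb were highest in macrophages, and Cd9 was highest in neutrophils, at 1104 CPM in the allografts and 1168 CPM in the isograft.

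Genes around the 10 moved in part. Of 10 genes of the TREM2 adaptor, its signalling and its sheddases, none was called in macrophages. The kinase gene Syk had 207, 217 and 123 CPM in allogeneic and 93.6 CPM in isogeneic macrophages (log2 change 0.99, adjusted p = 0.161 by edgeR). Of the LXR partners and targets other than the members, 11 of 13 could be tested and none was called. Pltp, a phospholipid transfer protein, had 228, 264 and 252 CPM in allogeneic and 401 CPM in isogeneic macrophages (log2 change -0.67, adjusted p = 0.103 by edgeR), and Arl4c 176, 151 and 134 CPM against 121 CPM (log2 change 0.36, adjusted p = 0.340 by edgeR). The median over the 11 was 0.19.

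Of 12 genes of cholesterol synthesis and LDL uptake 11 were tested in macrophages, with a median of -0.55, and none was called there. Insig1 had 36.4, 38.3 and 41.5 CPM in allogeneic and 48.9 CPM in isogeneic macrophages (log2 change -0.32, adjusted p = 0.311 by edgeR). In allografts, 6 of the 10 genes of this list tested there were called lower in macrophages than in monocytes and none higher. Over all genes 10.9% were lower and 9.84% higher. Between graft types in monocytes, the median of the 10 genes of this list tested was -1.72, against 0.076 over all genes. Only Cyp51 was called in that comparison (log2 change -2.30, adjusted p = 0.0220 by edgeR), on 45 isogeneic UMIs. For the difference between classes 3 of 10 genes were called, all positive, against 1.81% of all genes. Of 14 genes for uptake, storage and lysosomal release of lipid 13 were tested and 1 was called. That was Fabp4, a fatty acid carrier like Fabp5, with 72.4, 71.5 and 42.1 CPM in allogeneic and 187 CPM in isogeneic macrophages (log2 change -1.56, SE 0.30, adjusted p = 0.0486 by edgeR).

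Of 17 companion genes of the lipid-associated state, 4 fell, 2 rose and 11 did not pass, so the list did not move one way. The lysosomal protease gene Ctsl had 622, 720 and 783 CPM in allogeneic and 2815 CPM in isogeneic macrophages (log2 change -1.97, SE 0.21, adjusted p = 0.0153 by edgeR). Cst7, an inhibitor of cysteine proteases, was higher, at 33.4, 33.9 and 25.6 CPM in allogeneic and 1.64 CPM in isogeneic macrophages (log2 change 4.27, SE 0.32, adjusted p = 0.00855 by edgeR). Axl, a receptor for dying cells, had 71.5, 55.0 and 37.1 CPM against 10.8 CPM (log2 change 2.37, SE 0.41, adjusted p = 0.0385 by edgeR).

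Of 8 genes for osteopontin receptors and the galectin-3 partner, 2 rose and none fell. Lgals3bp, which encodes a secreted binding partner of galectin-3, had 264, 239 and 214 CPM in allogeneic and 81.3 CPM in isogeneic macrophages (log2 change 1.58, SE 0.22, adjusted p = 0.0247 by edgeR). Itga4, an integrin subunit that binds osteopontin, had 87.1, 80.4 and 97.1 CPM against 30.2 CPM (log2 change 1.57, SE 0.22, adjusted p = 0.0244 by edgeR). Spp1 itself was lower in these allogeneic macrophages and Lgals3 did not pass the test, as given above. The other 6 genes of this list did not pass either.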

How the data were processed

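The authors deposited counts, that is, unnormalized whole UMIs for every gene and barcode. Cell Ranger 3.1.0 and mm10 appear in the submitters' processing notes and version 6.1.0 in the matrix headers; which of both produced the counts is not given. Cells were sequenced with a 3' kit, per the labels' protocols. Of 34097 gene identifiers, 32403 were found in GENCODE M21.

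Barcodes with at least 500 UMIs, at least 300 genes and at most 20% mitochondrial UMIs were kept. A lineage was given where at least 0.5 of its markers had a UMI. Its share also had to lead the next of 12 lists by at least 0.25. This left out barcodes with close shares of 2 lineages, but barcodes with fewer markers of another lineage could still pass. No doublet caller was used in the values reported. Macrophages and monocytes needed at least 3 of their 6 markers and more than of the other list. Ungated cells made up 36.1%, 35.4% and 31.1% of the allogeneic libraries and 21.9% of the isogeneic one. Summed counts of each library and class were compared with edgeR 4.0.16 (R 4.3.3, TMM, default expression filter, quasi-likelihood F-test, Benjamini-Hochberg adjustment over all genes, threshold 0.05), with 2 residual degrees of freedom in comparisons of grafts. These fits take the spread of the single isogeneic library to equal that of the allografts. An exact permutation of these 4 libraries cannot give a two-sided p below 0.25. Each SE is the absolute log2 change over the square root of F and is approximate. The macrophage comparison by edgeR was also run on simulated counts with 1 spread common to all genes, and no result here rests on that run.

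All 10 genes are named. From 6 further lists (74 genes), up to 4 genes called in macrophages with at least 10 CPM are named by size of change, or the 2 of highest level where none was called. Some genes this rule names are not reported here. For likeness, genes with a UMI in at least 10% of thinned macrophages of every library entered. The members and all lists were chosen with earlier results of these data known. Alternatives were RLE scaling, no filter, DESeq2 1.42.0, each allogeneic library left out, other gate limits, a 10% mitochondrial limit, cells of at least 2000 UMIs, Scrublet, and Leiden clusters (scanpy 1.11.5, leidenalg 0.10.2, Python 3.11.15); thinning before gating and leaving out shared barcodes were added after seeing the data.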

Additional observations from a re-analysis of the deposited data

Results flagged for a closer look

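The effect of the graft type on Lpl differed between macrophages and monocytes, by -1.97 on the log2 scale (SE 0.42, adjusted p = 0.0481 by edgeR's quasi-likelihood test of that difference). Lpl had 20.9, 20.7 and 30.7 CPM in allogeneic macrophages and 64.2 CPM in isogeneic ones, and 45.0, 27.8 and 41.4 CPM in allogeneic monocytes and 24.9 CPM in isogeneic ones. The isogeneic monocytes gave 18 Lpl UMIs in all, and over the 15 alternatives the adjusted p lay at up to 0.238 and passed the threshold in 8.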

How the results depend on the processing

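The calls of the 10 genes in the 5 comparisons, 20 in all, passed the threshold in 286 of 315 alternatives. Spp1 and Trem2 kept their call in macrophages, monocytes and all phagocytes under every alternative, other than Trem2 in macrophages without replicate 1. Some values took another sign. They were Fabp5 in monocytes without replicate 2 (-0.18), at a lineage gap of 0.5 (-0.029) and after thinning (-0.21), with a range of -0.18 to 0.41 over left-out libraries, and, with classes from clusters, macrophages against monocytes for Cd9 (-0.13) and Abca1 (-0.38, called with gates). The difference between classes changed sign for Trem2 without replicate 2 (0.0027), for Apoe (-0.60) and Spp1 (-0.48) without replicate 3, and for Spp1 after thinning (-0.027), with ranges over left-out libraries of -0.66 to 0.0027 for Trem2, -0.60 to 1.55 for Apoe and -0.48 to 0.50 for Spp1. The cause was not tested.

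Leaving out one allogeneic library gave 181 to 7073 genes and 1 to 8 members called in macrophages, 251 to 2361 genes and 3 to 7 members in monocytes, 615 to 7805 genes and 3 to 9 members in all phagocytes, 953 to 3751 genes in macrophages against monocytes, and 161 to 1520 genes and 1 to 10 members for the difference between classes. With no filter on low counts, 1658 genes were called in macrophages, 783 in monocytes and 894 for the difference, with 6 members beside 2087 genes in all phagocytes and 5 members for the difference. DESeq2 called 1470 genes in macrophages, 478 in monocytes, 2363 in all phagocytes and 1116 in macrophages against monocytes, with 7 members in all phagocytes and 2 members beside 239 genes for the difference. Classes from clusters gave 1548 genes in macrophages, 722 in all phagocytes and, for macrophages against monocytes, 4771 genes and 4 members. Thinning before gating gave 7 members and 1183 genes in macrophages, 7 members and 1222 genes in all phagocytes, 623 genes in macrophages against monocytes and, for the difference, 66 genes and 0 members. For the difference, 183 genes and 0 members were called at a lineage gap of 0.5, 105 genes and 0 members with marker shares 0.3 apart, and 0 members with RLE scaling, a marker share of 0.7, cells of at least 2000 UMIs or shared barcodes left out, where Lpl stayed at adjusted p = 0.0525, 0.0542, 0.0538 and 0.0768 by edgeR. Clusters left 18 isogeneic monocytes, under the minimum of 20, so monocytes and the difference were not run with them.

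Without scaling, the share of calls that were higher was 34.8% in place of 47.5% in macrophages against monocytes and 70.7% in place of 83.8% for the difference, and the median log2 change of all genes in monocytes was 0.198 in place of 0.076. No paired analysis was possible because the groups share fewer than 2 replicate numbers. Depth limits Nr1h3 and Lpl most in isogeneic monocytes, at 15 and 18 UMIs.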
